A study of Gallus gallus with 6 samples.

Results

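The potassium channel genes described here were all genes whose symbol in the array's annotation began with the name of a potassium channel family: KCNA, KCNB, KCNC, KCND, KCNE, KCNF, KCNG, KCNH, KCNJ, KCNK, KCNMA, KCNMB, KCNN, KCNQ, KCNS, KCNT or KCNV. The rule gave 118 probe sets of 65 genes, out of 38535 probe sets and 13009 gene symbols on the array. It also took in the accessory genes KCNAB1 and KCNAB2, whose symbols begin with KCNA. Each gene was represented by the probe set with the highest mean signal over all 6 arrays, a choice that 32 genes with more than 1 probe set required and that favours a probe set that is bright in either group. The family was put forward with earlier results of these arrays known, so its values and counts, from a fit across all probe sets, are given as a description.

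Whole ovarian tissue of 6 hens (Gallus gallus) had been hybridised to Affymetrix chicken arrays, 1 array per hen. The cancer group held 3 hens (4, LB14 and LB11) with ovarian tumours, either restricted to the ovary or with seeding in the abdomen. The normal group held 3 hens (36, LB3 and LB22) with no gross or microscopic sign of ovarian cancer, matched to the others in age and laying status. Strain, exact age and the stage of each tumour were not known here. Each array came from its own hen, so the spread is that between animals. The labels give the tissue as ovary. STAR, a marker of hormone-making ovarian cells, had 3447, 1739 and 2215 in normal hens 36, LB3 and LB22. It was lower, at 76.6, 187 and 549, in the tumours of hens 4, LB14 and LB11. The 3′ to 5′ log2 signal difference of control transcripts, a measure of RNA quality, was 0.10 to 0.22 in cancer and −0.01 to 0.20 in normal arrays.

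Potassium channels let potassium ions pass through the cell membrane along their gradient and so set the resting voltage of a cell and end its electrical signals. In secretory epithelia they also carry the potassium that keeps chloride and fluid moving, and in smooth muscle they oppose contraction. The family divides into voltage-gated channels, inward rectifiers, tandem pore channels that leak potassium at rest, channels opened by calcium or sodium inside the cell, and accessory subunits that form no pore of their own.

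Of the 65 genes, 33 passed a filter on low signals (a mean of at least 66.9 over the 6 arrays) and were tested. 2 passed the threshold of an adjusted p under 0.05, both higher in the tumours, and 31 did not (limma on log2(signal + 16), Benjamini-Hochberg over all 23063 tested probe sets). KCNN2 was measured above background in both groups. KCNJ16 was below background in every normal ovary and entered the test through its tumour signals, and with no filter its adjusted p was 0.0732. Over all 10671 genes tested, 0.365% were called higher and 0.0562% lower, and over all tested probe sets 0.234% and 0.0434%. No potassium channel gene was called lower by limma; at an unadjusted p under 0.05, 4 were higher and 2 lower, where 5.59% and 5.78% of all genes were. Among the 33, 21 differences were positive (63.6%, against 47.9% of all genes) and 12 negative. Their median was 0.17 on the log2 scale against −0.02 over all genes. 28 of the 33 differed by less than 1 on that scale (84.8%, against 95.2% of all genes). A difference of 1 or more was found in 5 of the 33 and in 4.8% of all genes. The mean of normal arrays alone would have kept 5 of the 33 below the filter (KCNJ16, KCNG2, KCNJ3, KCNJ12 and KCNMB2), and that of tumour arrays alone 1 (KCNK3), which favours the sign they show. The ovary is a mixture of cells, and fewer cells of a type cannot be told apart from less RNA per cell in any value below.

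**Figure D1:**
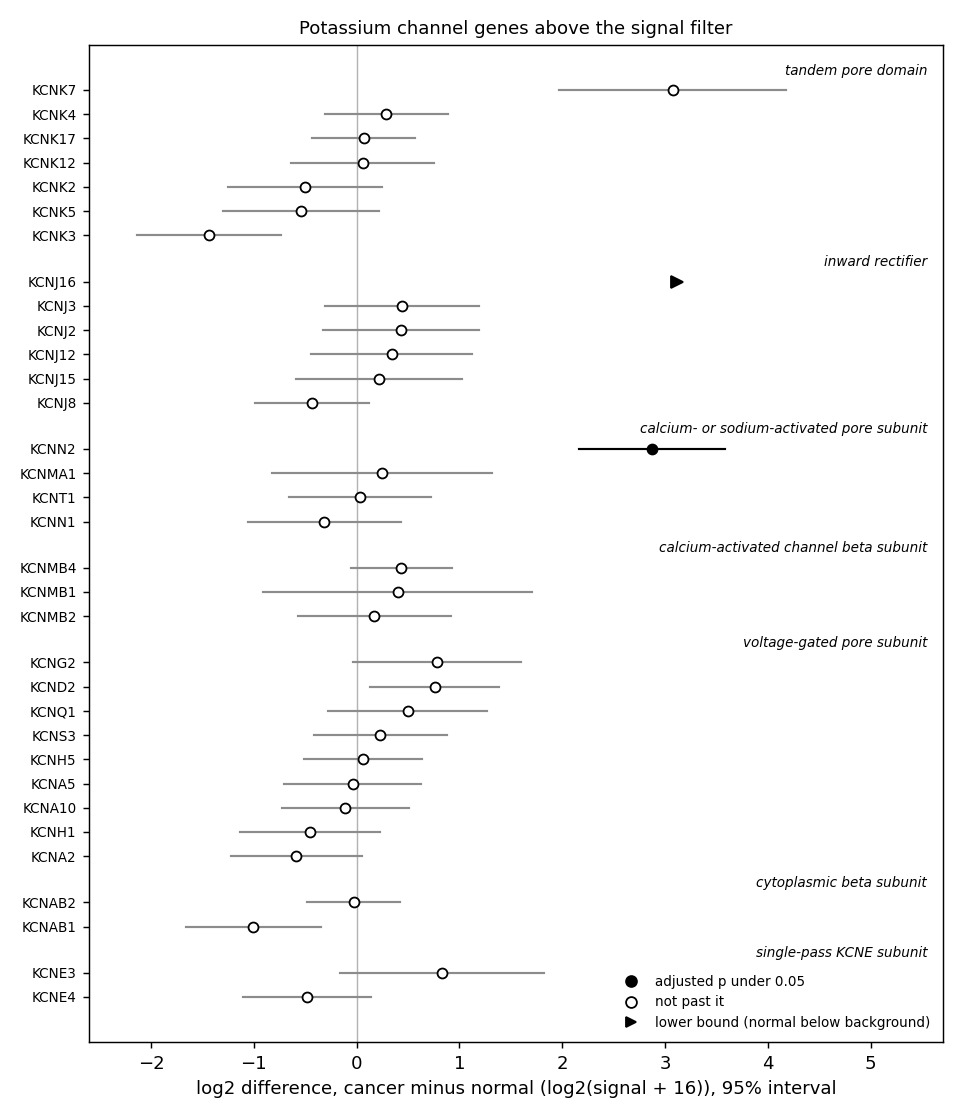
Log2 difference between ovaries with tumours and normal ovaries (cancer minus normal, on log2(signal + 16)) for each of the 33 tested potassium channel genes, grouped by kind of subunit; lines are 95% intervals from limma and filled symbols have an adjusted p under 0.05. The triangle of KCNJ16 is its lower bound (8.67-fold), since it was below background in normal ovaries; KCNK7 (3.08) and KCNN2 (2.87) stand right of the other circles, and 28 circles lie between −1 and 1.

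KCNN2 encodes a small-conductance channel opened by calcium through bound calmodulin, best known from neurons and heart muscle. Its signal was 869, 1494 and 627 in the tumours of hens 4, LB14 and LB11, against 111, 110 and 121 in the normal ovaries of hens 36, LB3 and LB22. The groups did not overlap, and the normal hens lay close together, above the background limits of their arrays. The means were 997 ± 448 in cancer and 114 ± 6.07 in normal ovaries (SD, n = 3 each), a 7.33-fold difference on the shifted scale. The log2 difference was 2.87 (SE 0.31, 95% interval 2.17 to 3.58, limma adjusted p = 0.00706). The call was lost without normal hen LB3 (adjusted p = 0.0607) or LB22 (adjusted p = 0.0508), and in the 4 hens with the LB prefix alone (adjusted p = 0.0947), with differences of 2.85, 2.91 and 2.91. Of 20 alternative settings, 17 kept KCNN2 past the threshold. Among these, the threshold of 0.1 and the probe set brightest in normal ovaries reused the same fit of KCNN2, so neither could lose the call.

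KCNN1, the gene of a close relative of the same type, differed in the other direction without passing. It had 139, 96.2 and 182 in cancer and 136, 145 and 255 in normal ovaries, and the groups overlapped (log2 difference −0.31, SE 0.33, 95% interval −1.06 to 0.43). The sodium-activated channel gene KCNT1 differed by 0.03 (95% interval −0.66 to 0.72), and its relative KCNT2 was below the filter.

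KCNJ16 encodes an inward rectifier subunit that in mammals works mainly in mixed channels of kidney tubules and brain glia. Its signal was 234, 1102 and 161 in the tumours of hens 4, LB14 and LB11, against 7.02, 7.59 and 6.13 in the normal ovaries of hens 36, LB3 and LB22. The tumour values were above, and the normal values below, the background limits of their arrays, which lay between 25.5 and 44.6. Against those limits the gene was at least 8.67-fold higher in cancer (limma adjusted p = 0.0424). No exact size can be given, as the fitted log2 difference ran from 2.59 with pseudocount 64 to 5.46 with pseudocount 1. Since its tumour signals alone carried KCNJ16 over the filter, it had to differ. Its adjusted p was above 0.05 when tumour 4 (0.0598) or a normal hen was left out (36, 0.173; LB3, 0.149; LB22, 0.194). It was also above 0.05 in the LB hens alone (0.198), with pseudocount 64 (0.127), with no filter (0.0732), with the filter at the 60th percentile (0.0605), without a trend in eBayes (0.0751) and after quantile normalization (0.0525). The other probe set of the gene, below the filter, had 2.19, 44.2 and 20.7 in cancer and 17.3, 9.04 and 4.16 in normal ovaries, so the difference was read by 1 of 2 probe sets.

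In the chicken gene order of RefSeq, KCNJ16 stands next to KCNJ2, the gene of a strong inward rectifier that holds the resting voltage of muscle cells. KCNJ2 had 206, 273 and 241 in cancer against 160, 285 and 110 in normal ovaries. Its groups overlapped, with a log2 difference of 0.43 (SE 0.34, 95% interval −0.33 to 1.19). KCNA10 and KCNA2, also neighbours, differed by −0.11 (95% interval −0.73 to 0.51) and −0.59 (95% interval −1.22 to 0.05).

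KCNK7 belongs to the tandem pore family, and in mammals it has given no current when expressed alone. Its signal was 8750, 22383 and 4307 in the tumours of hens 4, LB14 and LB11, against 1133, 1239 and 965 in the normal ovaries of hens 36, LB3 and LB22. The lowest tumour was well above the highest normal ovary, and the tumours differed widely among themselves. The log2 difference of 3.08 (SE 0.49, 95% interval 1.97 to 4.18) missed the threshold, at a limma adjusted p of 0.0507. The adjusted p was below 0.05 without tumour LB11 (0.00504), without tumour LB14 (0.0212), with array weights (0.0183) and after quantile normalization (0.0409). It was higher without normal hen 36 (0.213), LB3 (0.151) or LB22 (0.268), without tumour 4 (0.0917), in the LB hens alone (0.284), without a trend in eBayes (0.109) and for the mean over the probe sets (0.147, log2 difference 2.38). Its other probe sets above the filter differed by 2.03 (SE 0.52, adjusted p = 0.223) and 2.05 (SE 0.60, adjusted p = 0.276). On each of the 3, every tumour was above every normal ovary, and the last of them can by its name read several transcripts.

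**Figure D2:**
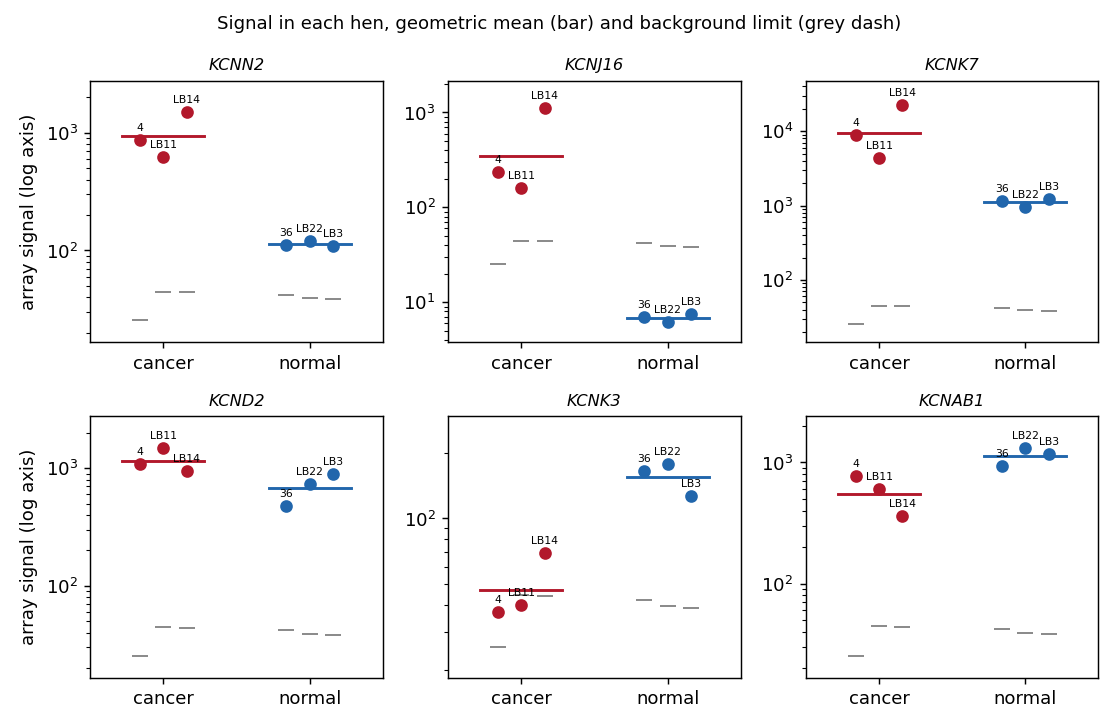
Array signal (log axis) of 6 potassium channel genes in each hen, cancer on the left and normal on the right of each panel; points are hens with their names, coloured bars are geometric means (n = 3) and grey dashes the background limit of each array. The panels show the 6 tested genes whose groups did not overlap. KCNJ16 was below the limit on all 3 normal arrays, and KCNK3 was below it in tumour LB11.

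KCNN2, KCNJ16 and KCNK7 had the same order of the tumours, with LB14 highest and LB11 lowest. KCNQ1, whose groups overlapped, had this order too. Over all genes tested, LB14 was the highest tumour in 35.2% and LB11 the lowest in 26.8%. The share of genes with both was not counted. The summed signal of epithelial markers was also highest in LB14 and lowest in LB11, as were 5 of the 7 markers. CLDN4, 1 of the 5, was nearly level in tumours 4, LB14 and LB11 (235, 239 and 232) and higher in normal hen 36 (247). ELF3 was highest in tumour 4 and ESRP1 in tumour LB11. The summed signal was 37680, 53648 and 22923 in the tumours of hens 4, LB14 and LB11, and between 16319 and 19169 in normal ovaries. All 7 tested epithelial markers had a positive difference, and 2 were past the threshold. These were CDH1, which joins epithelial cells (5.44), and CLDN3, a tight junction protein (at least 49.4-fold higher). CLDN3 was below background in all 3 normal ovaries, so it entered the test through its tumour signals and was bound to differ. EPCAM and KRT7 were above background on all 6 arrays. Egg-white genes, made by the glands of the oviduct, were positive in 9 of 9 tested and called higher in 5. Of those called, OVAL, OVALY and SPINK7 had normal means below the filter (26.2, 36.3 and 18.8). They entered the test through their tumour signals and were bound to differ. SPINK5 and OVST, which were not called, also had normal means below the filter (65.8 and 43.5). That of SPINK5 was close to the filter. The other called genes, TF and LYZ, were above background on all 6 arrays. The summed egg-white signal was 55039, 100739 and 81457 in cancer and between 792 and 2167 in normal ovaries. Among the tumours this sum was lowest in tumour 4, not in LB11. The part of these cells in the KCNN2, KCNJ16 and KCNK7 values was not tested.

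**Figure D3:**
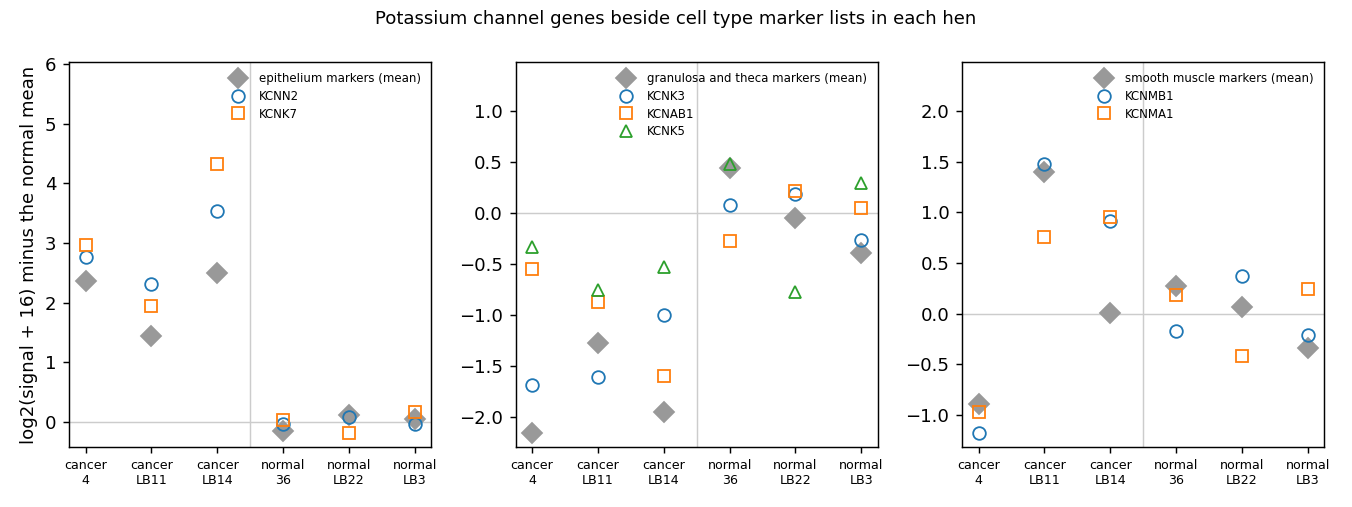
Log2(signal + 16) of potassium channel genes and mean of a marker list (grey diamonds) in each hen, relative to the mean of the 3 normal hens. On the left, KCNN2, KCNK7 and the mean of the epithelial markers are above 0 in the 3 tumours; in the middle, KCNK3, KCNAB1, KCNK5 and the mean of the granulosa and theca markers are below 0 there, while KCNK5 in normal hen LB22 is as low as in the tumours; on the right, KCNMB1, KCNMA1 and the mean of the smooth muscle markers are lowest in tumour 4.

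KCNQ1 and KCNE3 encode a voltage-gated pore and an accessory subunit that, together, form a channel of gut and airway epithelia in mammals. KCNE3 had 205, 694 and 231 in cancer against 139, 235 and 161 in normal ovaries, so that tumour LB14 stood apart and the others lay within the normal range (log2 difference 0.83, SE 0.44, limma adjusted p = 0.588). KCNQ1 had 362, 793 and 339 in cancer against 375, 354 and 251 in normal ovaries (0.50, SE 0.34, limma adjusted p = 0.710). Differences on the 3 probe sets of KCNQ1 ran from 0.26 to 0.53. On the dimmest, the groups did not overlap (0.53, SE 0.31, limma adjusted p = 0.642). That probe set passed the filter only through its tumour signals, which favours the sign it shows. KCNE4, a subunit that inhibits KCNQ1 channels in expression systems, had 377, 370 and 604 in cancer and 827, 559 and 512 in normal ovaries. Its groups overlapped on the brighter probe set (log2 difference −0.48, SE 0.28) and did not on the other (−0.43, SE 0.25), and neither passed the threshold. KCNE1 and KCNE2 were below the filter.

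None of the tandem pore genes passed the threshold, KCNK7 included. KCNK3, whose acid-sensitive channel sets the resting voltage of steroid-making cells of the adrenal cortex in mammals, had 37.1, 69.5 and 40.1 in the tumours of hens 4, LB14 and LB11, against 165, 126 and 178 in the normal ovaries of hens 36, LB3 and LB22. The groups did not overlap, and tumour LB11 was below its background limit of 44.6. The log2 difference was −1.43 (SE 0.31, 95% interval −2.13 to −0.73, limma adjusted p = 0.148), and the gene passed the filter only through its normal signals. A dimmer probe set, below the filter, had 60.7, 66.7 and 30.2 in cancer and 25.2, 80.5 and 59.4 in normal ovaries.

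KCNK2, the gene of a channel opened by stretch, was read by 3 tested probe sets that differed from each other. The brightest had 2674, 1184 and 2969 in cancer against 3709, 2701 and 2690 in normal ovaries, with overlap between the groups (log2 difference −0.50, SE 0.33). The second differed by −0.25 (SE 0.29). The dimmest had 95.03, 52.1 and 71.8 in cancer against 302, 181 and 235 in normal ovaries, with no overlap (log2 difference −1.52, SE 0.30, limma adjusted p = 0.121). The name of the dimmest probe set marks it as one that can read several transcripts.

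KCNK5, of an alkali-activated channel, had 393, 340 and 287 in cancer against 700, 614 and 285 in normal ovaries, where hen LB22 was as low as the tumours (log2 difference −0.54, SE 0.33, limma adjusted p = 0.666). Its probe set, too, can by its name read several transcripts. KCNK17, from the same subgroup, was nearly level, with 1249, 777 and 1105 in cancer and 973, 1053 and 903 in normal ovaries (0.07, 95% interval −0.43 to 0.57), a sign that turned without tumour 4 (−0.07). KCNK12 (0.06) and KCNK4 (0.29) were not past the threshold either.

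**Figure D4:**
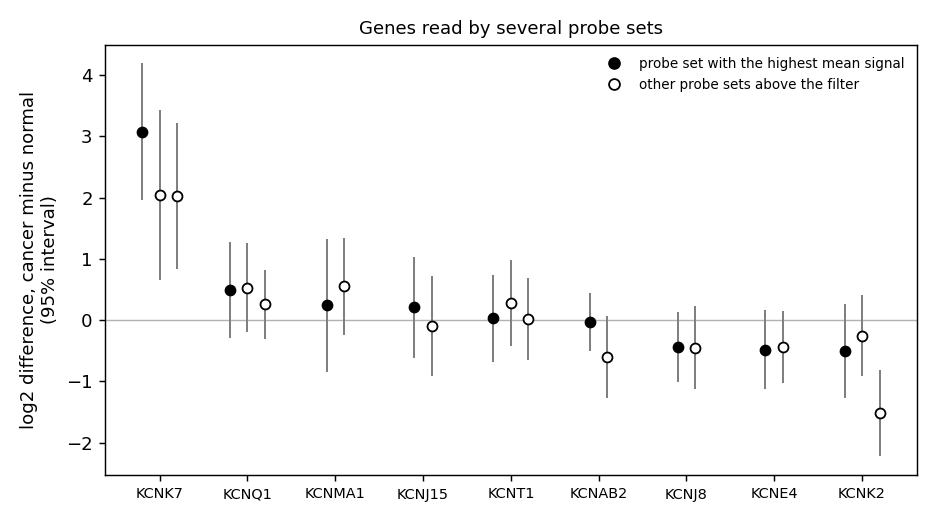
Log2 difference (cancer minus normal, with 95% intervals from limma) on each tested probe set of the 9 potassium channel genes read by more than 1; filled points are the probe sets that represent the gene. In 8 of the 9 genes the signs were alike, KCNJ15 being the exception, and the probe sets of KCNK2 and KCNK7 lay 1.27 and 1.05 apart.

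Among voltage-gated channels, 9 of 29 genes were tested and none passed in limma. At an unadjusted p under 0.05, 1 was higher, where 5.59% of all genes were. KCND2, of a fast transient current in neurons and heart, had 1078, 947 and 1495 in cancer against 474, 884 and 730 in normal ovaries. Its groups did not overlap, although the gap between tumour LB14 and normal hen LB3 was small (log2 difference 0.76, SE 0.28, 95% interval 0.13 to 1.39, limma adjusted p = 0.392). DPP10, a membrane protein that speeds these channels in mammals, had 188, 235 and 217 in cancer against 337, 361 and 265 in normal ovaries (−0.55, SE 0.23, limma adjusted p = 0.461). KCNIP1, a calcium-binding partner of them, differed by −0.25 (SE 0.31). Of other tested partners, DPP6 differed in the other direction, by 0.22 (SE 0.40), and KCNIP4 by −0.105 (SE 0.33).

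KCNG2, a subunit that is silent alone and modifies other channels, had 75.1, 146 and 119 in cancer and 47.1, 90.5 and 41.9 in normal ovaries (0.78, SE 0.36, limma adjusted p = 0.518). KCNA2, of a delayed rectifier of axons, had 111, 144 and 172 in cancer against 278, 166 and 225 in normal ovaries (−0.59, SE 0.28, limma adjusted p = 0.538). KCNH1, a channel of brain that is found in many human tumours, had 318, 153 and 204 in cancer against 304, 366 and 247 in normal ovaries, with overlap (−0.46, SE 0.30, 95% interval −1.14 to 0.22). KCNA5, KCNH5 and KCNS3 differed by −0.04, 0.06 and 0.23. The 20 voltage-gated genes below the filter were KCNA1, KCNA3, KCNA4, KCNC1, KCNC2, KCND3, KCNF1, KCNG1, KCNG3, KCNG4, KCNH4, KCNH6, KCNH7, KCNH8, KCNQ3, KCNQ5, KCNS1, KCNS2, KCNV1 and KCNV2.

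KCNAB1 encodes a cytoplasmic beta subunit that speeds the closing of KCNA channels. It had 767, 361 and 606 in the tumours of hens 4, LB14 and LB11, against 928, 1168 and 1313 in the normal ovaries of hens 36, LB3 and LB22. The groups did not overlap (log2 difference −1.01, SE 0.29, 95% interval −1.66 to −0.35, limma adjusted p = 0.271). KCNAB2, its relative, differed by −0.03 (SE 0.20) on the brightest probe set and by −0.60 (SE 0.29) on another, where the groups did not overlap.

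In all, 6 of the 33 tested genes had groups without overlap, KCNN2, KCNJ16, KCNK7 and KCND2 higher and KCNK3 and KCNAB1 lower in the tumours, which is 18.2% of them. KCNJ16 passed the filter only through its tumour signals and KCNK3 only through its normal signals, which favours the sign they show. Over all genes tested, 17.4% had no overlap (8.01% higher and 9.41% lower), so the share among potassium channel genes was near that background.

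KCNK3 and KCNAB1 lay lower in ovaries where the markers of granulosa and theca cells, the hormone-making cells of the follicle, were also lower. Of those 13 markers, 12 had a negative difference and 11 were lower without overlap, where 9.41% of all genes were. Among the 11, INHA had a tumour mean below the filter (36.4). It entered the test through its normal signals (mean 195), which favours the sign it shows. Limma called none of the 13 (HSD3B1, a steroid-making enzyme, and STAR, which brings cholesterol into mitochondria, had adjusted p of 0.0616 and 0.0636). Their summed signal was between 17398 and 34482 in cancer and between 50145 and 67301 in normal ovaries, and none of the 13 was below background on all arrays. Among the tumours the order of the markers depended on the measure. The sum was lowest in tumour LB14, which had the lowest KCNAB1 and the highest KCNK3 signal. The mean log2 value, relative to normal ovaries, was lowest in tumour 4 (−2.16, against −1.95 in LB14 and −1.28 in LB11), which had the highest KCNAB1 and the lowest KCNK3 signal. The part of these cells in the KCNK3 and KCNAB1 values was not tested.

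The large-conductance calcium-activated channel, which relaxes smooth muscle, is built from the pore encoded by KCNMA1 and beta subunits. KCNMB1, the beta subunit of smooth muscle, had 546, 2376 and 3508 in the tumours of hens 4, LB14 and LB11, against 1116, 1086 and 1632 in the normal ovaries of hens 36, LB3 and LB22. KCNMA1 had 216, 863 and 755 in cancer against 501, 522 and 324 in normal ovaries. For both genes tumour 4 was the lowest and the other tumours the highest of the 6 hens, so the tumours lay on both sides of the normal ovaries. The log2 differences were 0.40 (SE 0.58, 95% interval −0.91 to 1.71) for KCNMB1 and 0.25 (SE 0.47, 95% interval −0.82 to 1.32) for KCNMA1. Without tumour LB11 the difference of KCNMB1 turned to −0.13. A dimmer probe set of KCNMA1 gave 0.56 (SE 0.34).

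The summed signal of smooth muscle markers was lowest in tumour 4 and highest in tumour LB11, whereas KCNMA1 was highest in tumour LB14. The sum was 12018, 21662 and 45948 in the tumours of hens 4, LB14 and LB11, against 23667, 13887 and 19477 in normal ovaries. Of 6 tested markers 4 had a positive difference and limma called none, with MYH11, smooth muscle myosin, nearest to it (0.86, adjusted p = 0.437). Single markers did not all keep the order of the sum: CALD1 was highest in tumour LB14 and lowest in normal hen LB3, and TAGLN was higher in tumour 4 than in tumour LB14 and normal hens LB3 and LB22. Whether smooth muscle content moved KCNMB1 and KCNMA1 was not tested. KCNMB4, a beta subunit of neurons, had 934, 751 and 1074 in cancer against 613, 795 and 613 in normal ovaries (0.44, SE 0.22, limma adjusted p = 0.563), and KCNMB2 differed by 0.17 (SE 0.33).

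KCNJ8 encodes the pore of the ATP-sensitive channel of blood vessel walls, and ABCC9 its regulatory partner. KCNJ8 had 264, 288 and 423 in cancer against 489, 438 and 383 in normal ovaries, with overlap (log2 difference −0.43, SE 0.25, 95% interval −0.99 to 0.12), and its second probe set gave −0.45 (SE 0.29). ABCC9, which is outside the family, had 249, 404 and 486 in cancer against 903, 709 and 725 in normal ovaries, with no overlap (−1.05, SE 0.27, limma adjusted p = 0.228). Endothelial markers were negative in 6 of 8 tested, limma called none, and their summed signal was between 3394 and 5148 in cancer and between 4576 and 5461 in normal ovaries. Smooth muscle markers were positive in 4 of 6 tested, with a median of 0.10, and limma called none. The part of either cell type in the KCNJ8 and ABCC9 values was not tested. Of the remaining inward rectifiers, KCNJ3, KCNJ12 and KCNJ15 differed by 0.44, 0.34 and 0.22, and KCNJ1, KCNJ4, KCNJ5 and KCNJ6 were below the filter.

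The 32 genes below the filter had mean signals between 4.43 and 64.8 over the 6 arrays. On the probe set that represents it, 10 of them were at or below the background limit on every array, among them KCNA3, KCNJ4 and KCNV2, and 2 (KCND3 and KCNF1) were above it on every array. Their differences lay between −0.72 and 0.84, values that are mostly background and were not tested. Over the 65 genes, 33 were above the limit on all 6 arrays, 22 on some and 10 on none.

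Spread was larger among tumours. The SD of log2(signal + 16) was larger in cancer than in normal ovaries for 22 of the 33 tested genes (66.7%, against 71.3% of all genes), with medians of 0.39 in cancer and 0.27 in normal ovaries, where all genes had 0.33 and 0.19.

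Other genes of potassium handling did not pass the threshold. A list of channel partners also held other channel genes outside the rule, such as KCNU1 and CNGA1. Of its 13 tested genes, 6 differences were positive and 7 negative, with a median of −0.02. Of 17 tested potassium pumps, cotransporters and their regulators, 5 were positive and 12 negative (median −0.11). FXYD2, a subunit of the sodium pump of kidney tubules, had 97.1, 279 and 38.0 in cancer against 6.18, 8.47 and 4.92 in normal ovaries, where all normal ovaries and tumour LB11 were below background, so that it entered the test through its tumour signals and no exact difference can be given (limma adjusted p = 0.191). ATP1B1, the main beta subunit of that pump, differed by −0.11 (SE 0.24). Of 15 tested calcium and sodium channel genes 6 were positive and 9 negative (median −0.07), with SCNN1A, a subunit of the epithelial sodium channel, at 1253, 272 and 123 in cancer and 128, 116 and 112 in normal ovaries (1.46, SE 0.67, limma adjusted p = 0.515). Limma called none of these genes.

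Markers of other cells were counted in the same way. Neuron markers were positive in 4 of 7 tested, with a median of 0.39. Of the 7, 2 were lower without overlap, as were 9.41% of all genes. 1 of the 2, TH, was below background in every tumour (mean 7.21). It entered the test through its normal signals (mean 149), which favours the sign it shows. Their summed signal, mostly that of the brightest gene, was 13475 to 21972 in cancer and 20437 to 22447 in normal ovaries, with GAP43 at background throughout. Glia had 1 positive of 4 tested (1438 to 2757 in cancer, 2288 to 2648 in normal ovaries), leukocytes 2 of 7 (13848 to 35720 against 22574 to 31724) and red cells 1 of 4 (5405 to 30768 against 18979 to 24250). Limma called none of the members of these lists. Oocyte and germ cell genes had 5 positive of 9 tested, with ZP3, an egg coat gene made by granulosa cells in birds, called lower (−3.52), and a summed signal of 11706 to 27259 in cancer and 19947 to 23970 in normal ovaries.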

How the data were processed

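Biotin-labelled total RNA of each hen had gone onto its own 1-colour Affymetrix chicken array, per the labels. The authors deposited a linear signal intensity per probe set, for which the submitters' processing notes name GCOS (version not given in the sources used here). Deposited intensities had a mean of 500.1 on each array after trimming 2% at both ends, so no further normalization was applied; such scaling hides any change in total messenger RNA.

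Probe sets (96 controls left out) with a mean signal at or above the 40th percentile (66.9) were compared as log2(signal + 16), cancer minus normal. The fit was made with limma 3.58.1 in R 4.3.3 (eBayes with trend, two-sided, Benjamini-Hochberg). A check on simulated arrays required only that mean estimates lie near the effects put in. Its arrays had the same spread in both groups, so it did not cover the larger spread among tumours. The shifted scale understates the change of dim genes. The background limit of an array is the 95th percentile over 59 controls. These were picked by name as controls for transcripts taken to be absent from the sample, and their absence was not checked. "At least" folds use mean log2 signals against that limit. Signals of different probe sets were not compared as levels. The summed signals of lists add them as deposited, so the brightest genes of a list weigh most in its sum.

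Symbols came from the platform annotation; 116 of the 118 potassium channel probe sets had their gene ID in the RefSeq table of GRCg7b, used for names and neighbours only, and 0 symbols changed. Lists (channel partners with some other channels, pumps and cotransporters, calcium and sodium channels, and markers of epithelium, egg white, granulosa and theca, oocytes and germ cells, smooth muscle, endothelium, neurons, glia, leukocytes and red cells) were matched by symbol. Members, lists, the filter and the limits were chosen with earlier results of these data known.

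The rule for named genes took those past the threshold or without overlap, the 8 largest differences each way, the 8 highest mean signals and neighbouring pairs, and, from each list, genes called and the 2 with the smallest p, of which those that bear on no potassium channel result are left unnamed. Other genes in the text, among them KCNN1, KCNT1, KCNMA1, EPCAM, ATP1B1, KCNIP1, DPP10 and those with a difference alone, were chosen after their values were seen. Figures were drawn with matplotlib 3.10.9.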

Additional observations from a re-analysis of the deposited data

How the results depend on the processing

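Over 20 alternatives, KCNN2 was called higher in 17 and no potassium channel gene was called lower in any. The threshold of 0.1 and the probe set brightest in normal ovaries could not lose the KCNN2 call, as they reused its fit. The 2 genes called higher became 1 with pseudocount 64, no filter, no eBayes trend or the filter at the 60th percentile. The count was also 1 with the probe set brightest in normal ovaries (an alternative chosen after seeing the data). It was 0 in the LB hens alone and 0 to 3 on leaving out 1 hen. In the LB hens, 5 of the 33 genes were higher at an unadjusted limma p under 0.05, as were 974 of all 23063 tested probe sets. Without normal hen LB3, or without LB22, none was called. At an unadjusted limma p under 0.05, 6 and 4 of the 33 were then higher, as were 1174 and 707 of all 23063 probe sets. Genes without overlap, 6 here, were 14 in the LB hens (42.4%, against 38.7% of all genes), 10 without the filter (15.4%, against 16.1%) and between 8 and 13 with 1 hen left out (24.2% to 39.4%, against 22.0% to 32.2%). The median difference of 0.17 became 0.0704 without the filter, 0.0937 after quantile normalization and between 0.016 and 0.23 with 1 hen left out.

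Over all probe sets, 54 higher and 10 lower became 35 and 3 without a trend, 21 and 1 in the LB hens and 87 and 24 at a threshold of 0.1. The lower count was 21 with array weights and 6 without the filter. With 1 hen left out the counts ran from 23 to 163 and from 0 (without LB22, where 633 had an unadjusted p under 0.05) to 25. Of 21 named members, KCNMB1 (−0.13 without tumour LB11, 1.19 without tumour 4) and KCNK17 (−0.0716 in the LB hens, −0.0708 without tumour 4, 0.266 without tumour LB14) changed sign, and 18 were past the threshold in no alternative. The cause of these changes was not tested. Averaging the probe sets of each gene gives no count of probe sets. No paired analysis was possible because the groups share no replicate numbers.

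With 3 arrays per group, 1 array per hen, intervals of the log2 differences are wide. Signals near the background limit carry little information on direction, and the filter favoured the sign of a gene that passed it through 1 group. Such a gene need not differ by much: KCNMB2 had means of 72.9 in cancer and 64.1 in normal ovaries, with overlap. No hen was tested for standing apart, since groups of 3 are too small for it.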
